A study of Mus musculus with 6 samples.

Results

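The genes described here are 10 nuclear genes for enzymes of mitochondrial fatty acid beta-oxidation: Cpt2, Acadvl, Acadl, Acadm, Acads, Hadhb, Hadh, Acaa2, Eci1 and Decr1. They were taken by name, with no measured value in the rule, but earlier results of these data were known when they were chosen. Every probe set annotated with a single symbol, from among these, was used. All 10 genes were on the array, out of 8251 genes named there, and had 13 of its 12422 probe sets that are not controls. Of these, 10 probe sets for 9 genes were among the 7601 bright enough to be tested, and each of the 10 was above the filter level of 109.7 in all 6 mice, with a lowest value of 543.1. Acadvl had no probe set that could be tested.

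RNA came from the whole small intestine of 6 black6-congenic mice aged 40 days. There were 3 Cftr control mice, CFTR(+/+), and 3 Cftr null mice, CFTR(-/-), with 2 males and 1 female in each group. Cftr encodes the chloride and bicarbonate channel of epithelial cells that is lost in cystic fibrosis. Mice of both genotypes had been given Peptamen, a liquid diet, from day 10 of life against blockage of the gut, so the contrast is between genotypes on that diet. Each mouse was measured on its own 1-colour Affymetrix array, and the values are scaled intensities in arbitrary units. The labels name neither the null allele nor which part of the gene it alters. The brightest Cftr probe set read 801.6 to 1017.5 in controls and 295.6 to 368.5 in nulls (log2 change -1.48, adjusted p = 0.00422). Precision is limited by the number of mice, and all 6 arrays had a 2%-trimmed mean of 500.3.

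Beta-oxidation shortens fatty acyl-CoA in the mitochondrial matrix by repeated cycles of dehydrogenation, hydration, a second dehydrogenation and thiolytic cleavage. Long chains enter as carnitine esters, and chain-length-specific dehydrogenases start each cycle. Unsaturated chains need auxiliary enzymes. Enterocytes of the small intestine take up much dietary fat, of which part is burned in their own mitochondria, and the nuclear receptor Ppara is a known activator of many of these genes.

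Transcripts of 3 of the 9 tested genes fell in Cftr null intestine and 0 rose, at an adjusted p under 0.05 (limma, Benjamini-Hochberg over all 7601 probe sets). Among all tested probe sets, 1.87% were called lower and 1.13% higher in nulls. The 3 were Hadh and Acaa2, which act late in the cycle and were 2.09-fold and 1.95-fold lower, and Cpt2, which acts at entry and was 1.41-fold lower. A further 4 genes, Acadm, Hadhb, Eci1 and Decr1, had every null value below every control value without passing the test. With the brightest tested probe set of each gene, nulls thus lay wholly below controls in 7 of 9 genes, as they did in 10.8% of all tested probe sets. Nulls lay wholly above controls in 0 of 9 genes, against 13.1% of all. The genes were chosen with earlier results of these data known, so these shares cannot show how unusual the set is. For Acadl and Acads the groups overlapped. The median log2 change was -0.50 over the 9 genes and 0.03 over all tested probe sets. Every such change is on the log2(intensity + 11.7) scale, where 11.7 is a pseudocount, and its sign is that of null minus control. In RNA of a whole organ, fewer cells of a type and less RNA per cell cannot be told apart.

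**Figure D1:**
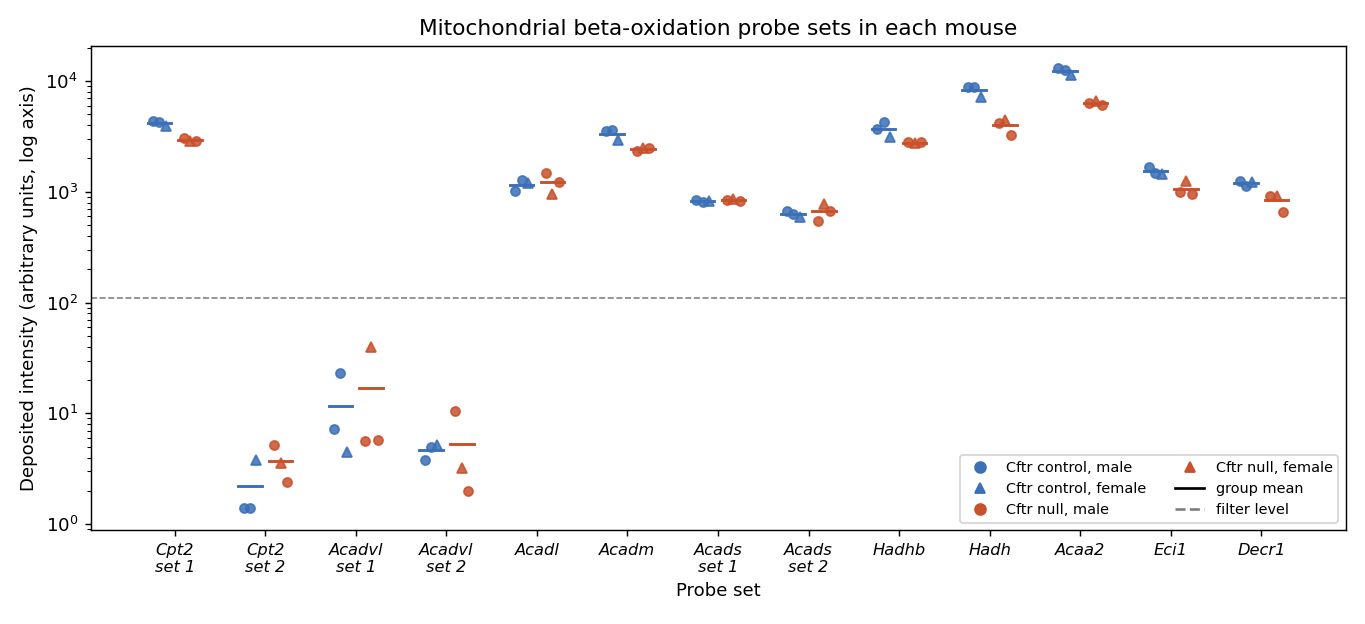
Deposited intensity (log axis) of all 13 probe sets in each of the 6 mice, by group and sex, with group means as bars and the filter level of 109.7 dashed. The 3 null mice lie below the 3 controls for Cpt2 set 1, Acadm, Hadhb, Hadh, Acaa2, Eci1 and Decr1, overlap them for Acadl and Acads, and the 3 probe sets below the line could not be tested.

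The stretch before the start sites of these genes was also read, as a description. The 250 bases upstream of the annotated start of Hadh, Cpt2 and Acads are shown, Hadh and Cpt2 as genes that fell and Acads as one whose groups overlapped. They come from RefSeq on GRCm38.p6, at chr3:131272102-131272351, chr4:107923590-107923839 and chr5:115119347-115119596, all on the minus strand, and are written 5′ to 3′ in the gene's direction. Capitals mark the GC box GGGCGG on either strand, the sequence bound by Sp1-type factors.
Hadh: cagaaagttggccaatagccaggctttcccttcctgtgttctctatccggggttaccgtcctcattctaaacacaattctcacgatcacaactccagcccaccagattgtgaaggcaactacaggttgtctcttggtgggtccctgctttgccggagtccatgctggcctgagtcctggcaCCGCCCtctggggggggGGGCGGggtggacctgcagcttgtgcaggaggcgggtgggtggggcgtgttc
Cpt2: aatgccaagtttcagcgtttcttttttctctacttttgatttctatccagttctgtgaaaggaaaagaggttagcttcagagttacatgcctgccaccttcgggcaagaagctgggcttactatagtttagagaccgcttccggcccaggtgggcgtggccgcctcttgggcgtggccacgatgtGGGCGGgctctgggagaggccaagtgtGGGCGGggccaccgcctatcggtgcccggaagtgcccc
Acads: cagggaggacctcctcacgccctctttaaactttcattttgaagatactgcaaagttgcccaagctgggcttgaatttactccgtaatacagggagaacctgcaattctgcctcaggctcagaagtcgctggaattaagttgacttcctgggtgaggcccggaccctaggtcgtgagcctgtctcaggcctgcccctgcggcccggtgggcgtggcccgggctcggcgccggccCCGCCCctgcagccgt

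The table of promoters held 8 of the 10 genes, all but Decr1 and Acaa2. At least 1 GC box was present upstream of 6 of the 8, Cpt2, Acadl, Acads, Hadhb, Hadh and Eci1. The share with a GC box was 32.7% of the 32851 windows of this length in the table. G and C made up 49.6% (Acadvl) to 68% (Acadl) of bases in the 8 windows, against a median of 52.4% over all windows. Only Acadvl lay below that median, and the counts of boxes were not adjusted for base content. Among the 6 genes with a GC box, Hadh and Cpt2 were called lower. Hadhb and Eci1 had all nulls below all controls without passing, and the groups overlapped for Acadl and Acads. A role of the boxes in these changes was not tested. The classical element of Ppara with its partner Rxra is a direct repeat of AGGTCA with 1 base between the copies. Allowing 2 mismatches and reading both strands, it was found in 0 of the 8 windows and in 3.24% of all. With so few windows, 0 of 8 cannot be told from that share. The closest match was in Hadh and Acadm, with 3 mismatches each. A single AGGTCA, which is also contained in the repeat, was found in 2 of the 8 (Acadvl and Acadm) and in 14.0% of all windows. The CCAAT box, CCAAT on either strand, was found upstream of Hadh alone among the 8, against 33.8% of windows, and the TATA box, TATAAA, in 0 of 8 against 12.4%. For the TATA box too, 8 windows are too few to tell 0 from that share. These are matches of letters in 250 bases, with no measure of binding.

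Cpt2, carnitine palmitoyltransferase 2 of the inner mitochondrial membrane, turns long-chain acylcarnitines back into acyl-CoA inside the matrix. Its tested probe set read 4331.8, 4269.8 and 3897.0 in the controls, given here and throughout by replicate from 1 to 3, and 3040.9, 2886.3 and 2895.3 in the nulls. Every null mouse was below every control, and the 3 nulls lay close together. Controls averaged 4166 ± 235 (SD, n = 3) and nulls 2941 ± 86.8 (SD, n = 3), a log2 change of -0.50 (SE 0.10, adjusted p = 0.0466). This call was near the threshold: it was kept in 6 of 18 alternative settings and ended in the other 12, among them leaving out any single mouse (adjusted p from 0.0794 to 0.174) and adding sex to the model (adjusted p = 0.0645). The second Cpt2 probe set read between 1.4 and 5.2 in all 6 mice, too dim to bear on it.

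The acyl-CoA dehydrogenases carry out the first step of each cycle and are specialised by chain length. Acadm, the medium-chain enzyme, read 3534.8, 3612.3 and 2922.4 in controls and 2350.4, 2463.1 and 2503.6 in nulls. The groups did not overlap, and the controls were more spread than the nulls. Its log2 change was -0.45 (SE 0.12, 95% interval -0.73 to -0.18, adjusted p = 0.0990), so it did not pass, nor did it in any of the 18 alternatives (adjusted p from 0.0761 to 0.295).

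Acadl, the long-chain enzyme, read 1009.9, 1276.6 and 1194.5 in controls and 1489.6, 950.7 and 1215.9 in nulls. Both the highest and the lowest of the 6 values belonged to null mice. The log2 change was 0.05 (SE 0.18, 95% interval -0.37 to 0.47, adjusted p = 0.911), and its sign turned without control replicate 1 or null replicate 1 (-0.04 and -0.10).

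Acads, the short-chain enzyme, had a pair of tested probe sets, and neither passed. The brighter, whose name marks possible cross-hybridization, read 851.0, 800.4 and 829.5 in controls and 834.9, 855.1 and 830.0 in nulls. These 6 values span 800.4 to 855.1, and the groups overlap. Its log2 change was 0.02 (SE 0.10, 95% interval -0.22 to 0.26, adjusted p = 0.937). The dimmer probe set read 674.8, 634.5 and 592.5 in controls and 543.1, 783.7 and 671.2 in nulls, with a log2 change of 0.06 (95% interval -0.30 to 0.42). The signs of both are unsettled, since each turned in at least 1 alternative (to -0.00043 for the brighter without control replicate 2 and to -0.11 for the dimmer in males). The intervals of both Acads probe sets and of Acadl lie above the changes estimated for Hadh and Acaa2. The difference between these genes' changes was not itself tested.

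Acadvl, the very long-chain enzyme, was represented by a pair of probe sets that were below the filter level in every mouse. One read 7.2, 23.3 and 4.5 in controls and 5.6, 39.8 and 5.8 in nulls, and the other between 2.0 and 10.6 over the 6 mice. No change can be stated for this gene.

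The later steps are shared by the trifunctional protein, which handles long chains at the inner membrane, and by soluble matrix enzymes that take over as the chain shortens. Hadh, the matrix 3-hydroxyacyl-CoA dehydrogenase, had the largest fitted decrease of the 9 genes. It read 8891.1, 8778.4 and 7178.3 in controls and 4174.1, 4486.2 and 3284.7 in nulls. The highest null value was well below the lowest control, and null replicate 3 was the lowest mouse. The means were 8283 ± 958 (SD, n = 3) and 3982 ± 623 (SD, n = 3), a log2 change of -1.06 (SE 0.15, adjusted p = 0.0151). The call was kept in 16 of 18 alternatives and ended when control replicate 1 was left out (adjusted p = 0.0650) and when null replicate 1 was (0.0677).

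Acaa2, the matrix 3-ketoacyl-CoA thiolase that releases acetyl-CoA, read 13108.6, 12606.7 and 11260.4 in controls and 6283.3, 6529.7 and 6131.0 in nulls. The nulls again formed a narrow group below all controls. The means were 12325 ± 956 (SD, n = 3) and 6315 ± 201 (SD, n = 3), a log2 change of -0.96 (SE 0.11, adjusted p = 0.00532). It passed in all 18 alternatives (adjusted p from 0.00285 to 0.0389).

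Hadhb, the thiolase subunit of the trifunctional protein, read 3663.6, 4282.3 and 3111.7 in controls and 2806.2, 2744.1 and 2789.6 in nulls. The nulls were nearly equal and lay below a widely spread control group. The log2 change was -0.39 (SE 0.13, 95% interval -0.71 to -0.08, adjusted p = 0.185). Its partner subunit gene, Hadha, is not named by any probe set of the annotation used.

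Eci1 and Decr1 are auxiliary enzymes that let unsaturated chains pass through the cycle: Eci1 moves the double bond and Decr1 reduces conjugated double bonds. Eci1 read 1678.4, 1470.3 and 1440.9 in controls and 998.2, 1244.6 and 961.0 in nulls. The female null, replicate 2, was nearest to the controls. The log2 change was -0.52 (SE 0.14, 95% interval -0.84 to -0.20, adjusted p = 0.101).

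Decr1 read 1239.6, 1134.3 and 1236.4 in controls and 925.4, 919.6 and 662.0 in nulls. Here null replicate 3 stood below the other nulls. Its log2 change of -0.54 (SE 0.15, 95% interval -0.89 to -0.18) did not pass either (adjusted p = 0.125), and both auxiliary genes stayed short of the threshold in all 18 alternatives.

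**Figure D2:**
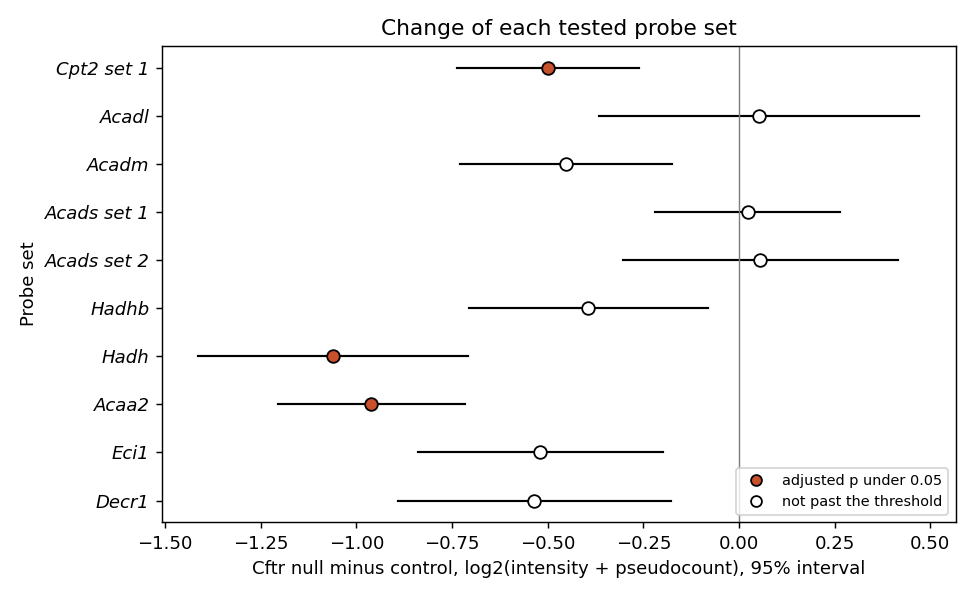
Fitted log2 change, null minus control, of the 10 tested probe sets with 95% intervals, filled where the adjusted p was under 0.05. Hadh (-1.06) and Acaa2 (-0.96) lie farthest below 0, Cpt2 (-0.50) is the third call, and the intervals of Acadl and both Acads probe sets span 0.

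Within groups the genes did not all order the mice alike. Of the 9 genes, 6 were lowest among controls in the female, replicate 3, and 5 were lowest among nulls in replicate 3. Averaged over the 9 genes, the log2 level relative to the control mean was 0.04, 0.05 and -0.09 in controls and -0.43, -0.45 and -0.56 in nulls. The null mice were therefore alike in this average, and each lay below each control. Among nulls the coefficient of variation was 1.16% for Hadhb, 3.19% for Acaa2 and 3.25% for Acadm but 22.1% for Acadl and 15.7% for Hadh. Null and control are compared through 3 mice each, so these spreads are themselves imprecise.

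**Figure D3:**
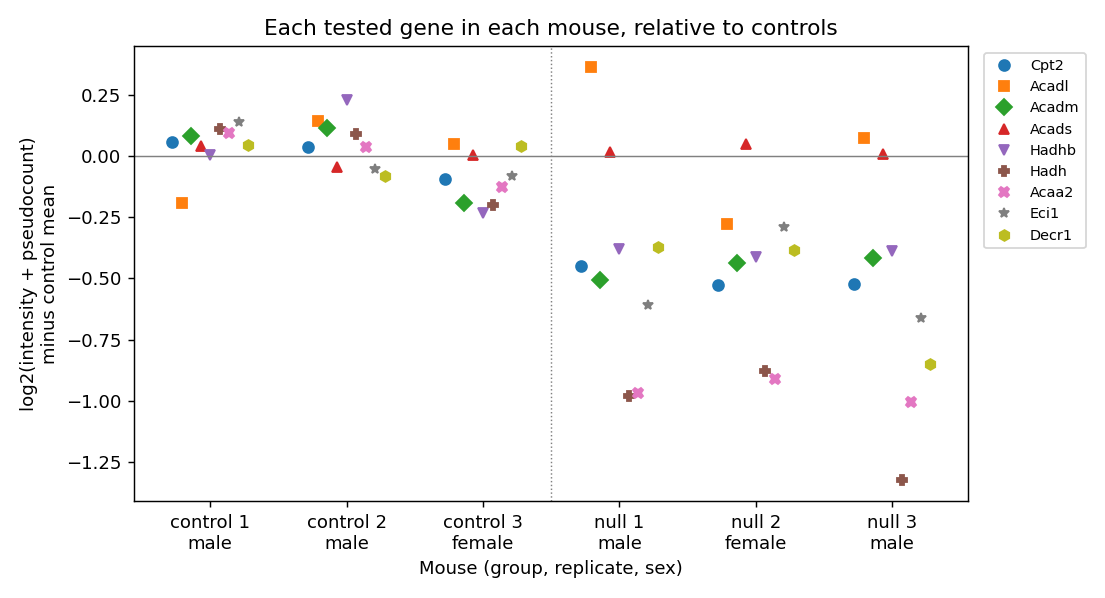
Log2(intensity + pseudocount) of each of the 9 tested genes minus its control mean, in each mouse (brightest tested probe set). In all 3 nulls Hadh and Acaa2 are the lowest points, Cpt2, Acadm, Hadhb, Eci1 and Decr1 lie between -0.29 and -0.85, and Acads stays within 0.05 of 0.

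Each group held a single female. The change of Hadh was -1.25 between males and -0.68 between the females, and that of Acaa2 was -1.05 and -0.79. Cpt2, Acadm, Hadhb, Eci1 and Decr1 were also lower in null mice of either sex, with female differences from -0.18 (Hadhb) to -0.43 (Cpt2). Acadl was 0.24 higher in null males and 0.33 lower in the null female (log2 change -0.33). The difference between sexes was tested as an interaction of genotype and sex: limma called 0 of 7601 probe sets, with 236 at an unadjusted p under 0.05, and the adjusted p was 0.9998 for each of the 10 tested probe sets of these genes. With 1 female per group this test had little information.

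Other genes of the pathway were read from lists of named genes. For acyl-CoA entry and the carnitine shuttle, 1 of 6 tested genes fell and 0 rose, with a median log2 change of -0.20 that was -0.085 without control replicate 2 and -0.31 without control replicate 3. The gene that fell was Crat, the carnitine acetyltransferase that buffers acetyl-CoA. It read 1406.6, 1426.8 and 1182.3 in controls and 621.9, 725.0 and 560.6 in nulls (log2 change -1.06, adjusted p = 0.0108), and the call ended without control replicate 1 or null replicate 1. A dimmer Crat probe set, with a name that marks possible cross-hybridization, did not pass (adjusted p = 0.0556). Cpt1a, the outer-membrane partner of Cpt2 and the regulated entry step, averaged 3373 ± 414 in controls (SD, n = 3) and 3206 ± 255 in the null mice (SD, n = 3), and its groups overlapped (log2 change -0.07, 95% interval -0.37 to 0.23). Cpt1a was named after its values were seen.

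Of 7 tested genes for other mitochondrial beta-oxidation enzymes and for electron transfer, 0 passed in either direction by limma. At an unadjusted p under 0.05, 3 were lower and 0 higher, where 8.17% of all tested probe sets were lower and 9.1% higher, and the median log2 change was -0.35. That median was -0.23 without control replicate 2. The brightest were Etfa and Etfb, the subunits of the flavoprotein that takes electrons from the acyl-CoA dehydrogenases. Etfa averaged 2971 ± 243 among controls (SD, n = 3) and 2321 ± 136 among nulls (SD, n = 3), and Etfb at 2474 ± 213 and 1973 ± 228. Both had non-overlapping groups, with adjusted p of 0.160 and 0.244; a dimmer Etfb probe set gave a log2 change of -0.11. Of the acyl-CoA dehydrogenases that serve amino acid breakdown, Gcdh (log2 change 0.18) and Ivd (log2 change -0.29) were tested, and with the brightest probe set of each the groups overlapped, 0 passed, and 0 had an unadjusted p under 0.05. A dimmer Gcdh probe set, with a name that marks possible cross-hybridization, had all nulls above all controls without passing (log2 change 0.62, 95% interval -0.21 to 1.45, adjusted p = 0.431).

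Peroxisomes shorten very long and branched chains with a separate set of enzymes. Of 8 tested genes of that system, 5 fell and 0 rose, with a median log2 change of -1.15. They were Cat, the catalase that destroys the hydrogen peroxide formed (log2 change -1.83), the thiolases Acaa1b (-1.79) and Acaa1a (2.002-fold lower), the bifunctional enzyme Hsd17b4 (-1.39) and Scp2, whose longer product is a thiolase (-1.29). In all 5 the nulls lay below all controls, though a second Cat probe set, with a name that marks possible cross-hybridization, did not pass (log2 change 0.26). The count was 2 without control replicate 1, 1 without null replicate 1 and 2 without null replicate 3. Whether the peroxisomal genes changed more than the mitochondrial ones was not tested.

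Ppara itself, counted among 7 tested regulators, fell: it read 1144.0, 1686.1 and 1133.8 in controls and 476.1, 505.9 and 621.7 in nulls (log2 change -1.27, adjusted p = 0.0151). The call ended without null replicate 1 and with males alone. The other 6 regulators did not pass, and the co-activator Ppargc1a was too dim to be tested, at 49.1 to 95.3. Of 7 other tested targets of Ppara, 3 fell and 0 rose, with a median log2 change of -1.32, the same with the bounds below in place of fitted values. These were Cyp4a10, a fatty acid hydroxylase whose probe set name marks possible cross-hybridization, at least 6.90-fold lower, Pdk4, which holds back pyruvate oxidation, at least 6.41-fold lower, and Slc27a2, a fatty acid transporter and activator, 4.05-fold lower. Both bounds are set against the filter level, which the mean of the nulls did not reach on the log2 scale. Cyp4a10 read 8.3 to 45.9 in the nulls, so it was tested through its control values alone. Without null replicate 1 the count was 1. Angptl4 did not pass by its brightest probe set (log2 change -0.80, limma adjusted p = 0.220). A dimmer Angptl4 probe set fell (log2 change -1.31, limma adjusted p = 0.0151), and another did not pass (log2 change -0.17). Names of the brightest and of the set that fell mark possible cross-hybridization.

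Lists of other mitochondrial genes served as a comparison. Of 15 tested citric acid cycle genes, 0 passed in either direction by limma, and the median log2 change was 0.02. At an unadjusted p under 0.05, 2 were lower and 0 higher, against 8.17% and 9.1% of all tested probe sets. The 2 were Ogdh (log2 change -0.49) and Sucla2 (-0.47, with a name that marks possible cross-hybridization), each with all nulls below all controls. Mdh2, malate dehydrogenase, averaged 14511 ± 956 among controls (SD, n = 3) and 13961 ± 126 among nulls (SD, n = 3), and Sdhd, an anchor subunit of succinate dehydrogenase, at 8144 ± 180 and 8578 ± 129. Of 63 tested genes for the respiratory chain and ATP synthase, 1 fell and 0 rose, with a median log2 change of 0.06. Over all tested probe sets, 1.87% were called lower and 1.13% higher. At an unadjusted p under 0.05 by limma, 3 were lower and 2 higher, against the same 8.17% and 9.1%. The gene that fell was Cox7a1, the muscle isoform of a cytochrome oxidase subunit. It averaged 1066 ± 44.3 among controls (SD, n = 3) and 556.5 ± 25.6 among nulls (SD, n = 3), and the call ended with males alone.

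Averaged over the genes of the citric acid cycle list, the log2 level relative to the control mean was -0.09, -0.07 and -0.01 in the 3 nulls. Its controls were at -0.07, 0.08 and -0.01, so the groups overlapped. For the 9 beta-oxidation genes the nulls were at -0.43, -0.45 and -0.56. The same average over the respiratory list was 0.03, 0.09 and -0.07. Related lists were lower in nulls too. Other mitochondrial beta-oxidation genes gave -0.24, -0.28 and -0.25, and entry and carnitine genes -0.20, -0.29 and -0.30. Peroxisomal genes gave -1.14, -0.90 and -1.33, and other Ppara targets -1.99, -1.51 and -1.87. In each of these related lists every null lay below every control, while for the regulators the groups overlapped. For the opposite pathway, fatty acid synthesis, 0 of 10 tested genes passed by limma, with a median of 0.26. At an unadjusted p under 0.05, 2 were lower and 3 higher, against the same 8.17% and 9.1%. Its brightest genes differed in the sign of their estimates: Srebf1, a regulator of lipid synthesis, averaged 1863 ± 259 among controls (SD, n = 3) and 1211 ± 196 among nulls (SD, n = 3), and the desaturase Scd2 at 1063 ± 646 and 2546 ± 560.

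**Figure D4:**
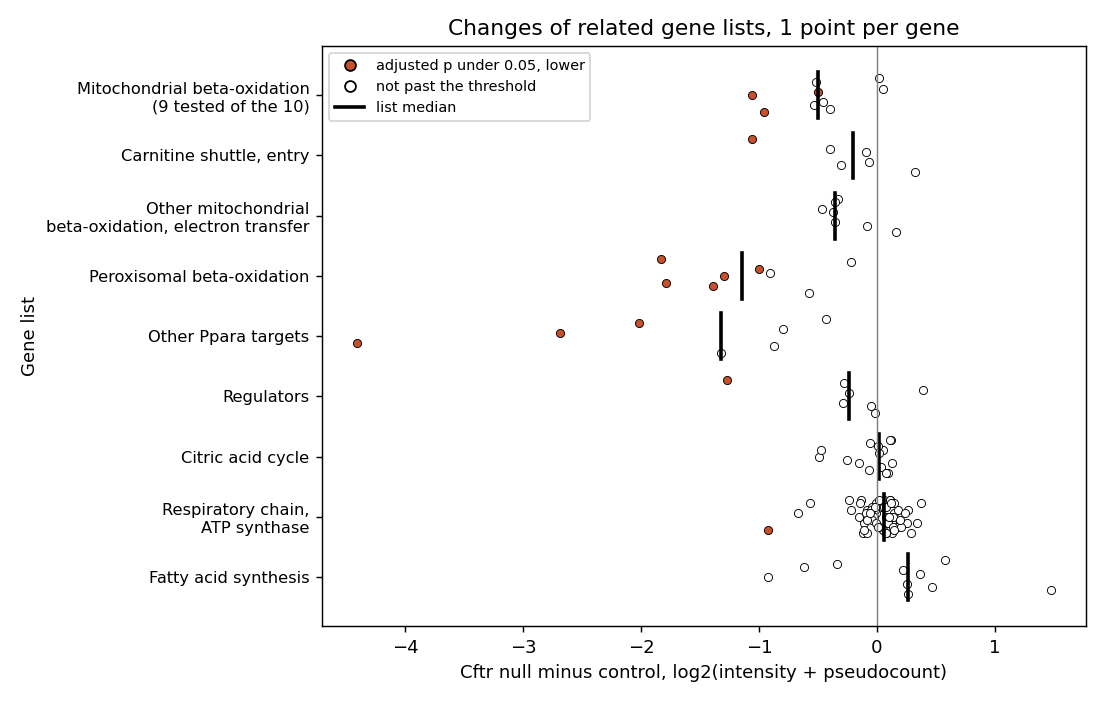
Log2 change of each tested gene (1 point per gene, brightest tested probe set) in the beta-oxidation genes and 8 related lists, filled where called lower, with list medians as black bars. Medians run from -1.32 and -1.15 for other Ppara targets and peroxisomal genes, through -0.50 for the mitochondrial beta-oxidation genes, to 0.02 and 0.06 for the citric acid cycle and respiratory lists and 0.26 for fatty acid synthesis.

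Markers of several cell types moved between the groups too. Of 9 tested enterocyte markers 1 fell, the brush border phosphatase Akp3, and their summed intensity was 104101 to 119747 in controls and 62474 to 89834 in nulls. In Lct, the lactase of the brush border, Fabp2, a fatty acid binding protein, and Apoa4, an apolipoprotein, all nulls lay below all controls without passing (log2 changes -3.12, -1.31 and -0.63, adjusted p 0.0606, 0.0939 and 0.122). The groups overlapped for the other 5, with log2 changes of -0.12 for Apoa1, -0.29 for Vil1, -0.24 for Cdh1, -0.23 for Epcam and -0.12 for Krt20. Of 6 smooth muscle markers 1 rose, Actg2, whose probe set name marks possible cross-hybridization (means 2904 in controls and 7351 in nulls). The smooth muscle sums were 8833 to 13272 in controls and 15859 to 20303 in nulls. For Acta2 and Myh11 the groups overlapped, and for Tagln, Cnn1 and Des all nulls lay above all controls without passing. Fibroblast markers summed to 7707 to 8372 and 9617 to 10286 with 0 of 5 called. All 3 mast cell markers rose, from sums of 133.0 to 353.5 up to 4129 to 11498. For each, the control mean on the log2 scale did not reach the filter level, so these sums do not give the size of the rise. Cpa3 read 13.5 to 30.6 in controls and was tested through its null values alone. With bounds set against the filter level, Mcpt1 was at least 33.5-fold higher in nulls and Mcpt2 at least 24.5-fold. Of 4 tested leukocyte markers 1 fell, Lyz2, with sums of 6219 to 8441 and 4386 to 4773 that Lyz2 makes up for the most part. Cd68 had all nulls above all controls without passing (log2 change 0.25, adjusted p = 0.397), and Cd3g was below the filter level in every mouse. Goblet, Paneth and pancreatic acinar sums overlapped between the groups and enteroendocrine sums were lower in nulls (4600 to 4888 against 2822 to 3752), with 0 markers called in any of these lists. In the Paneth marker Mmp7, all nulls lay above all controls without passing (log2 change 0.89, limma adjusted p = 0.260). Itln1, which makes up most of the Paneth sum, overlapped. In the goblet marker Fcgbp, all nulls lay below all controls without passing (log2 change -0.36, limma adjusted p = 0.105). A dimmer Fcgbp probe set overlapped. Of the fat cell markers on the array, Adipoq was below the filter level in every mouse, while Lep read 739.5 to 1058.8 in controls and 1017.0 to 1097.9 in nulls and missed the threshold (adjusted p = 0.409, log2 change 0.27). The part of these shifts in the changes of the beta-oxidation genes was not tested.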

How the data were processed

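Each of 6 mice was measured on 1 array, with 3 mice per group by their labels. The deposited file holds 1 linear intensity per probe set and array. Its 2%-trimmed means are equal on all arrays, so the authors deposited scaled values. The scanner software, background step and detection calls are not given in the sources used here. Of 12488 probe sets, 66 controls were set aside. Gene names came from the platform annotation given, for 10833 probe sets with a single symbol. All 10 genes' Entrez identifiers were found in the RefSeq gene table under the same symbol.

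Intensities were used as deposited and turned into log2(intensity + 11.7), the 10th percentile of the values. The pseudocount makes changes of dim genes look smaller. Testing required a value above 109.7, the 40th percentile, on 3 or more arrays, counted over both groups together. Null and control were compared with limma 3.58.1 in R 4.3.3 (lmFit, then eBayes with its trend option; two-sided). P-values were adjusted by Benjamini-Hochberg across all 7601 tested probe sets and called at 0.05. The functions were tested on simulated data. Lists were described by the brightest tested probe set of each gene, with counts and medians and no set test. A fold is given as a bound where the lower group's mean on the log2 scale did not reach that of 109.7.

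The genes and lists were chosen with earlier results of these data known. The text names every one of the 10 genes, Cftr, and from each list the 4 largest changes among genes that passed, or else the 2 brightest genes. Acaa1a, Cpt1a, Ppargc1a, Hadha, Angptl4, Ogdh, Sucla2 and the cell type markers named singly were chosen after their values were seen. So were the GC, CCAAT and TATA boxes. The labels state no pairing or batch. The sample titles are codes, some sharing letters and numbers across the groups (as those of control replicate 1 and null replicate 3), and whether they mark litters or cages is not stated; mice were taken as independent, and replicate numbers are only names. Alternatives were quantile normalization, equal medians, pseudocounts of 3 and 48, no filter, a filter at 288.7, sex as a covariate, males only, no variance trend, robust variance, gene means, leaving out names that mark possible cross-hybridization (an s, f, r, i, g or x ahead of the suffix), and leaving out each mouse.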

Additional observations from a re-analysis of the deposited data

How the results depend on the processing

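Of the counts compared, 22 moved by more than 1.5 times and 354 did not. Over all probe sets they were 50 higher and 85 lower with males only, 49 and 92 without a variance trend, and 17 to 68 higher and 35 to 117 lower when single mice were left out (fewest without null replicate 1), against 86 and 142. The beta-oxidation genes called lower numbered 3, from 1 to 2 with a mouse left out and 2 or 3 in every other setting; none was called higher in any setting run. Without a mouse, counts called lower were 0 to 1 for entry and carnitine genes, 0 to 1 for regulators (0 with males only), 1 to 4 for other Ppara targets and 1 to 6 for peroxisomal genes; the respiratory list had 0 with males only. Of the changes of single genes, 160 kept direction and side, 14 were weaker (12 for Cpt2, 2 for Hadh) and 5 turned sign, none of them called: Acadl (-0.04 without control replicate 1, -0.10 without null replicate 1; range with a mouse left out -0.10 to 0.22), the brighter Acads probe set (-0.00043 without control replicate 2; range to 0.043) and the dimmer (-0.11 with males only, -0.067 without null replicate 2; range to 0.19). The cause was not tested, beyond the fewer mice in these fits. Of the list medians under alternatives, 163 moved by less than the spread between replicates and 8 by more: entry and carnitine genes to between -0.31 and -0.085, other mitochondrial genes to -0.23, regulators to -0.052, other Ppara targets to -1.75 and -1.80, and amino acid dehydrogenases, turning sign, to 0.18. The median over all probe sets stayed between 0.02 and 0.04. Dim signal leaves Acadvl without a result, and the annotation used names no probe set for Hadha. No paired analysis was possible because the labels give no replicate numbers and do not say whether the title codes mark litters.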

Other observations

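By a rule of likeness, the probe sets outside the 10 genes whose log2 values over the 6 mice had the highest Pearson r with the mean of the 9 tested genes were listed. They were Tnni1, a troponin I (r = 0.993), H2az2, a histone H2A variant (0.992), Dhrs1, a short-chain dehydrogenase (0.992), Rundc3a (0.991) and Arg2, the mitochondrial arginase (0.991). The 6 mice form 2 genotype groups, so these values follow mainly the difference between the groups, and no p is given. Tnni1 read 664.6, 664.7 and 585.2 in controls and 393.5, 425.6 and 348.6 in nulls. Arg2, which splits arginine in mitochondria, read 6634.3, 7266.0 and 6017.4 in controls and 2548.8, 2700.5 and 1810.8 in nulls, a log2 change of -1.51 (limma adjusted p = 0.00566), while a dimmer Arg2 probe set did not pass (log2 change -0.68).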
